A study of Mus musculus with 8 samples.

Results

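RGS proteins (regulators of G protein signalling) end the signal of a G protein-coupled receptor. The receptor loads a G alpha subunit with GTP, and an RGS protein binds this active subunit and speeds the hydrolysis of the GTP, so that the subunit returns to its resting state and takes the G beta and gamma subunits back. The family is divided by structure. The R4 proteins consist of little more than the RGS domain and a short stretch that binds the membrane, the R12 group holds the small Rgs10 and the large, many-domained Rgs12, and the RZ proteins carry a string of cysteines that can be palmitoylated.

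The signal of 10 genes of this family, Rgs2, Rgs3, Rgs4, Rgs5 and Rgs16 (R4), Rgs10 and Rgs12 (R12) and Rgs17, Rgs19 and Rgs20 (RZ), was followed in mouse adult fibroblasts (MAFs). All probe sets that the array annotation gives to these genes were taken, 29 of the 45037 probe sets and 10 of the 18193 genes measured. The annotation held another 9 genes named Rgs, which are described with the rest of the pathway. The genes were chosen by their family and by measured values of these arrays, the low Rgs4 and the high Rgs20 signal of the Cre Recurred cells. For the RGS genes every comparison that contains the Cre Recurred arrays is therefore given as a description without a p value of its own, and their tests are given only for GFP Recurred against GFP Naïve cells and for Cre Naïve against GFP Naïve cells, which share the GFP Naïve arrays.

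The cells came from the peritoneal fascia of mice with a floxed Rb1 gene. In the Cre Recurred cells an adenovirus with Cre recombinase had removed part of Rb1, which encodes the retinoblastoma protein (RB), and the cells had then been exposed to cisplatin (CDDP) for 24 h and had grown out again in fresh medium. The GFP Recurred cells had received a GFP adenovirus, kept Rb1 and went through the same treatment. Cre Naïve and GFP Naïve cells were the untreated cells with and without deletion. All 4 populations also carried p53DD, a truncated p53 delivered by retrovirus that disables the p53 of the cell, so none of them had an intact p53 response, and each was an infected population rather than a clone. There were 2 arrays per population, named biological replicates in the labels, and 8 arrays in all. The values are log2 signals of the Robust Multichip Average (RMA), in which 1 unit is a doubling.

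The array medians lay between 5.37 and 5.41. The brighter probe set of Rb1 gave 4.98 and 5.45 in Cre Recurred, 8.21 and 8.78 in GFP Recurred, 6.21 and 5.72 in Cre Naïve and 7.98 and 8.07 in GFP Naïve cells. It was low on all Cre arrays, as labelled, whereas a dimmer Rb1 probe set (3.52 to 4.47) was not. Replicate 2 of the Cre Naïve cells correlated better over all probe sets with replicate 2 of the Cre Recurred cells (r = 0.9917) than with replicate 1 of its own population (r = 0.9855). Of the fibroblast markers, Col1a1 (11.92 to 13.45), Col1a2 (12.72 to 13.84) and Vim (13.17 to 13.58) were bright on every array, whereas Fap gave 3.65 and 5.24 in Cre Recurred cells and 5.76 to 7.45 on the 6 other arrays. Fap (-2.39) and Prrx1 (-1.05) were called lower and Thy1 (0.91) higher in Cre Recurred than in GFP Recurred cells, and Thy1 also than in GFP Naïve cells (1.10). Among the markers of immune cells Ptprc lay at 2.95 to 3.19 and the highest, Cd3e, at 5.71 to 6.26, and among those of epithelium Cdh1 lay at 2.69 to 2.85, Krt8 at 4.53 to 5.34 and Epcam at 5.65 to 6.60, with none of either list called in any comparison. The summed log2 signal of 7 fibroblast markers was 72.0 in replicate 1 and 78.2 in replicate 2 of the Cre Recurred cells. It was 79.0 to 80.6 in GFP Recurred, 78.1 to 80.3 in Cre Naïve and 75.2 to 78.8 in GFP Naïve cells. Only replicate 1 of the Cre Recurred cells thus lay below all naïve arrays. The summed log2 signal of 5 mesothelial markers was 27.1 to 27.2 in Cre Recurred cells and 22.8 to 25.3 on the 6 other arrays. Lrrn4 (2.71 to 2.99) and Upk3b (3.85 to 4.14) were low throughout. Msln gave 8.85 and 7.82 in Cre Recurred cells and 6.15 to 6.98 on the others and was called higher in all 3 comparisons of the Cre Recurred cells, and Krt19 (7.23 and 6.26 in Cre Recurred cells, 4.48 to 6.11 on the others) was called higher against GFP Recurred cells. Wt1 went the other way, at 4.30 and 5.96 in Cre Recurred cells. Its log2 differences from Cre Naïve, GFP Recurred and GFP Naïve cells were -0.77, -0.40 and -0.31, and none was called. The part of these markers in the RGS values was not tested, and in bulk RNA fewer cells of a type and less RNA per cell cannot be told apart.

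For the promoters, RefSeq entries of the GRCm38.p6 build were used, which hold 250 bases before and 50 bases after a transcription start. Entries were found for 9 of the 10 genes, Rgs20 having none. Rgs2, Rgs4, Rgs5, Rgs16 and Rgs20 all lie on chromosome 1, where Rgs4 and Rgs5 are next to each other in the order of protein-coding genes. The promoters of the 2 genes that were low in Cre Recurred cells (Rgs2 and Rgs4), of the neighbour of Rgs4 (Rgs5) and of the gene that was high in GFP Recurred cells (Rgs17) are printed here 5′ to 3′ on the strand of the gene, with each CG dinucleotide in capitals, to show how their density differs. They lie at chr1:144004100-144004399 on the minus strand (Rgs2), chr1:169747593-169747892 on the minus strand (Rgs4), chr1:169655251-169655550 on the plus strand (Rgs5) and chr10:5922351-5922650 on the minus strand (Rgs17).
Rgs2: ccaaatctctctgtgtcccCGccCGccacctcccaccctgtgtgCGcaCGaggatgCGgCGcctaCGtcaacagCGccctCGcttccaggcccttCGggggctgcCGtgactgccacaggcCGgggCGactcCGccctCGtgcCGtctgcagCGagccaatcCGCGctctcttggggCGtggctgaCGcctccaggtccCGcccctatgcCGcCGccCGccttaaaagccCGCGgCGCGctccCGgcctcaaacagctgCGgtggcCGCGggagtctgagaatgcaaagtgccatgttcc
Rgs4: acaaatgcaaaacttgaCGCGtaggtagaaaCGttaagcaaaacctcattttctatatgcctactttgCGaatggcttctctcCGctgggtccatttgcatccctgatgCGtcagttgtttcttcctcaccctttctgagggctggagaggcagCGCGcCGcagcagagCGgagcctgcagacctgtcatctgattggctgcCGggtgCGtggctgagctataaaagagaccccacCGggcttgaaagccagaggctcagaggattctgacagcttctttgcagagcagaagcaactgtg
Rgs5: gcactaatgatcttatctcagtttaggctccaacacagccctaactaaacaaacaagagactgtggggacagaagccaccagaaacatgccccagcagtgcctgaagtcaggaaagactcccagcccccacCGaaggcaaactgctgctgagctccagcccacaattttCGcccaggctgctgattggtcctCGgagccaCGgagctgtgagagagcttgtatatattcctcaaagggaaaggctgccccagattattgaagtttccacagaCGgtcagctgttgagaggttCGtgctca
Rgs17: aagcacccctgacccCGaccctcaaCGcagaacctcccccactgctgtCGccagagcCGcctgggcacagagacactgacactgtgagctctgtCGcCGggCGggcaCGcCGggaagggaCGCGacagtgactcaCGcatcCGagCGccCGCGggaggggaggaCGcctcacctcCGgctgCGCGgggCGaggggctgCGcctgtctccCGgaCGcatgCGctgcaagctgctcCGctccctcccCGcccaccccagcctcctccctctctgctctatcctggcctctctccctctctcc

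These windows held 33 CG dinucleotides in Rgs2, 13 in Rgs4, 6 in Rgs5 and 27 in Rgs17, against a median of 7 over 32851 entries of the same length. Rgs2 and Rgs4, which varied together across the arrays, thus had promoters of unlike composition, and the adjacent Rgs4 and Rgs5 also differed. The CREB/ATF element TGACGTCA was found in none of the members' windows and in 1.79% of all entries. The shorter TGACG, searched on both strands and also contained in the full element, occurred in Rgs2, Rgs4 and Rgs12 and in 20.8% of all entries. TATAAA, on both strands, occurred in Rgs3 and Rgs4 and in 13.6% of all entries. A match of letters is a description of the window and was not tied to any signal here.

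Among the RGS genes, Rgs2 and Rgs4 were low and Rgs20 was high in Cre Recurred cells. On the brightest probe sets of the other 7 genes the arrays of Cre Recurred and Cre Naïve cells overlapped, except for the dim Rgs5. The share of all probe sets with such an overlap was not counted. With 2 arrays per population an overlap does not show that a gene was unchanged. By the study's thresholds (at least 1.5-fold, with a limma adjusted p under 0.25), 6 of the 29 RGS probe sets were called in Cre Recurred against Cre Naïve cells, 2 higher and 4 lower, where 1.16% of all probe sets were called, 0.389% higher and 0.775% lower. They belong to Rgs2, Rgs4 and Rgs20, the last 2 of which the choice of genes had used, so nothing is read from this count. At 1.5-fold and an adjusted p under 0.05, 2 remained (1 of Rgs4 and 1 of Rgs20), with 0.0533% of all probe sets called. Without replicate 1 of the Cre Recurred cells only 1416286_at of Rgs4 was called at the study's thresholds (1 of 29), and without either of the GFP Recurred arrays, which enter through the shared spread, 2 were. The median log2 difference of the 29 probe sets was -0.10, beside 0.05 over all probe sets.

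**Figure D1:**
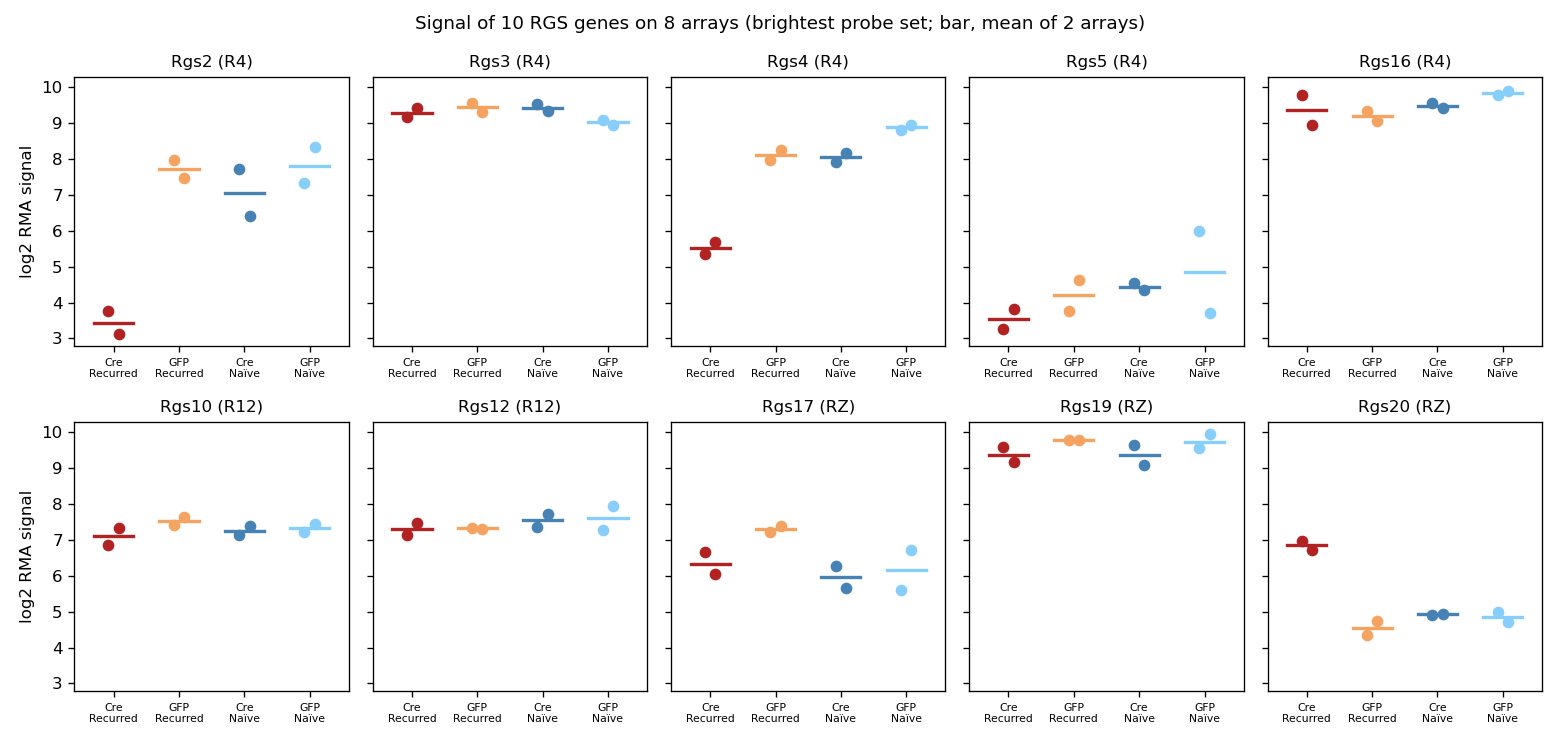
Signal of the 10 RGS genes on the 8 arrays, each gene by its brightest probe set. Points are arrays, bars are the means of the 2 arrays of a population, and the y axis is the log2 RMA signal. Rgs2 (3.44) and Rgs4 (5.52) have their lowest means in Cre Recurred cells and Rgs20 (6.85) has its highest mean there, while Rgs17 is highest in GFP Recurred cells (7.31).

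Rgs2, an R4 protein that acts mainly on the Gq subunits, showed the largest range of the 10 genes, 5.19 log2 units over the 8 arrays. Its brightest probe set (1419248_at) gave 3.76 and 3.13 in Cre Recurred, 7.98 and 7.48 in GFP Recurred, 7.71 and 6.41 in Cre Naïve and 7.32 and 8.33 in GFP Naïve cells. Both Cre Recurred arrays lay far below the 6 others, which overlapped each other. The difference between Cre Recurred and Cre Naïve cells was -3.62 (SE 0.50), a 12.3-fold lower signal. Against GFP Recurred cells it was -4.28, or 19.5-fold lower, and against GFP Naïve cells -4.38, or 20.8-fold lower. These are ratios of RMA signal. No detection calls were used, and whether the Cre Recurred values lay above background was not determined.

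Of the other Rgs2 probe sets, 1447830_s_at gave 3.33 and 3.39 in Cre Recurred cells, 6.96 and 6.32 in GFP Recurred cells, 7.19 and 5.61 in Cre Naïve cells and 6.78 and 7.44 in GFP Naïve cells. The probe set 1419247_at gave 4.10 and 4.68 in Cre Recurred cells, 7.49 and 7.02 in GFP Recurred cells, 7.55 and 5.96 in Cre Naïve cells and 6.78 and 8.19 in GFP Naïve cells. All 3 probe sets thus had the same order, with the Cre Recurred arrays apart. The remaining one, 1443250_at, stayed between 3.43 and 3.81 on all arrays and showed no difference between populations, at a signal below that of most probe sets (percentile 22.6). Within the Cre Naïve cells replicate 2 was the lower of the pair on all 4 probe sets. Without it the difference of 1419248_at between Cre Recurred and Cre Naïve cells was -4.27, and without replicate 1 it was -2.97.

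Rgs4, which acts on the Gi and Gq subunits, is well known from the brain and heart. Its brightest probe set (1416286_at) gave 5.36 and 5.68 in Cre Recurred, 7.97 and 8.25 in GFP Recurred, 7.92 and 8.18 in Cre Naïve and 8.81 and 8.96 in GFP Naïve cells. The signal was thus highest in GFP Naïve cells, alike in GFP Recurred and Cre Naïve cells, whose arrays overlapped, and lowest in Cre Recurred cells. It was 5.78-fold lower in Cre Recurred than in Cre Naïve cells (log2 difference -2.53, SE 0.18), 6.03-fold lower than in GFP Recurred cells (-2.59) and 10.3-fold lower than in GFP Naïve cells (-3.36).

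The second Rgs4 probe set, 1416287_at, gave 5.23 and 5.04 in Cre Recurred, 6.47 and 6.73 in GFP Recurred, 6.55 and 6.57 in Cre Naïve and 7.18 and 7.66 in GFP Naïve cells. The third and dimmest, 1448285_at, gave 3.58 and 3.75 in Cre Recurred, 4.28 and 4.22 in GFP Recurred, 4.26 and 4.21 in Cre Naïve and 4.86 and 6.49 in GFP Naïve cells. On all 3 probe sets the GFP Naïve arrays were above and the Cre Recurred arrays below all others. The size differed, since the difference between Cre Recurred and Cre Naïve cells was -1.42 (SE 0.19) on 1416287_at and -0.57 (SE 0.45) on 1448285_at. On 1448285_at the GFP Naïve replicates lay 1.63 apart, the widest gap of any Rgs4 pair.

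Rgs20, known as RGSZ1 and selective for the Gz subunit, was the RGS gene with a high signal in Cre Recurred cells. Its brightest probe set (1443694_at) gave 6.97 and 6.73 in Cre Recurred, 4.35 and 4.73 in GFP Recurred, 4.91 and 4.94 in Cre Naïve and 4.98 and 4.72 in GFP Naïve cells. The 6 arrays outside the Cre Recurred cells lay between 4.35 and 4.98, and both Cre Recurred arrays were well above them. The signal was 3.79-fold higher in Cre Recurred than in Cre Naïve cells (log2 difference 1.92, SE 0.18), 4.95-fold higher than in GFP Recurred cells (2.31) and 3.99-fold higher than in GFP Naïve cells (2.00).

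The probe set 1421493_a_at, which covers several Rgs20 transcripts, gave 4.96 and 4.64 in Cre Recurred, 3.79 and 3.79 in GFP Recurred, 3.61 and 3.79 in Cre Naïve and 3.44 and 3.65 in GFP Naïve cells. Here too the Cre Recurred arrays were above the 6 others, at a lower level, while the order of the other populations differed from that on 1443694_at. The log2 difference was 1.10 (SE 0.16) between Cre Recurred and Cre Naïve cells. The third, 1446199_at, was flat, at 4.28 to 4.51 on all arrays.

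**Figure D2:**
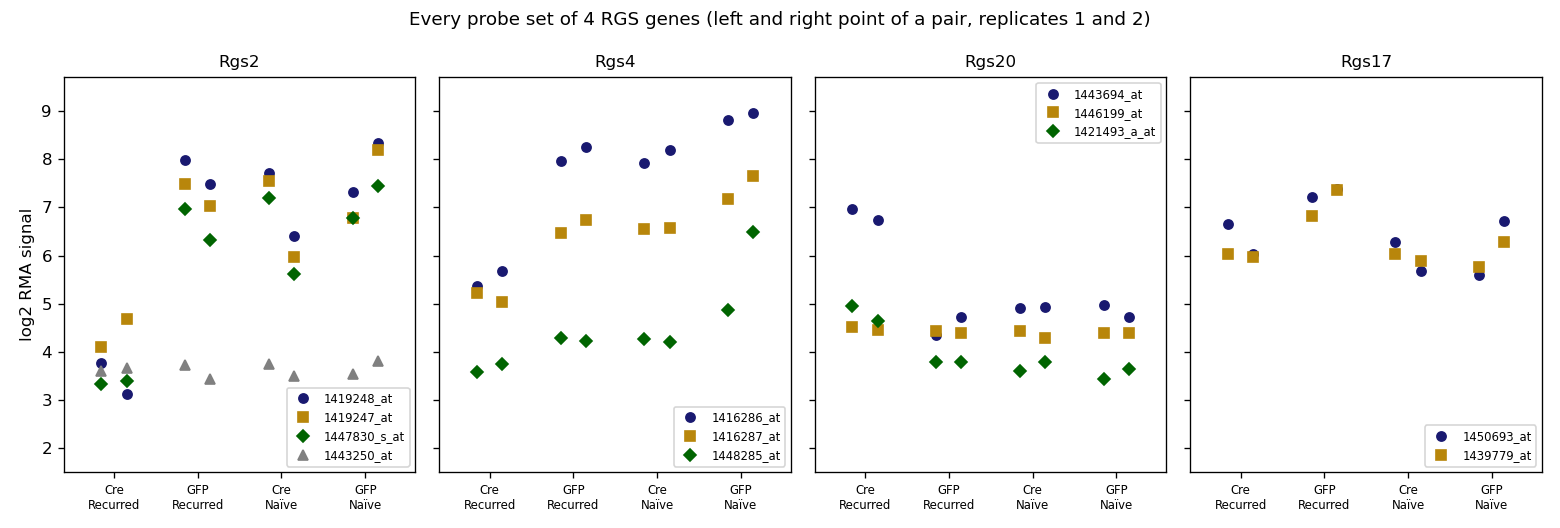
Every probe set of Rgs2, Rgs4, Rgs20 and Rgs17 in each population, with replicate 1 left and replicate 2 right in a pair and the log2 RMA signal on the y axis. 3 of the 4 Rgs2 probe sets are low in Cre Recurred cells and 1443250_at is flat, all 3 Rgs4 probe sets are lowest there, and 1446199_at of Rgs20 stays at 4.28 to 4.51.

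Across the 8 arrays the brightest probe sets of Rgs2 and Rgs4 varied together (Pearson r = 0.93), and Rgs20 varied against both (r = -0.96 with Rgs2 and -0.93 with Rgs4). These correlations describe 8 arrays in which the Cre Recurred pair lies apart from the rest, and the points share the populations. The genes most like Rgs4 among 3345 genes with a range of at least 1 log2 unit were Hspb1 (r = 0.982), 3830406C13Rik (r = 0.981) and Hspa1b (r = 0.981). Those most like Rgs20 were Mctp1 (r = 0.994), Iqcg (r = 0.989) and Pcdh20 (r = 0.974). Hspb1 and Hspa1b encode heat shock proteins, Mctp1 a membrane protein with C2 domains and Pcdh20 a protocadherin.

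The range of Hspb1 was smaller than that of Rgs4, with 10.73 and 10.78 in Cre Recurred, 11.83 and 11.69 in GFP Recurred, 11.69 and 11.84 in Cre Naïve and 12.22 and 12.01 in GFP Naïve cells. As with Rgs4, the GFP Naïve arrays were on top, the Cre Recurred arrays were lowest, and the GFP Recurred and Cre Naïve arrays overlapped. Mctp1 gave 4.85 and 4.69 in Cre Recurred, 3.63 and 3.69 in GFP Recurred, 3.81 and 3.74 in Cre Naïve and 3.82 and 3.76 in GFP Naïve cells. As with Rgs20, the 6 arrays outside the Cre Recurred cells were close together.

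**Figure D3:**
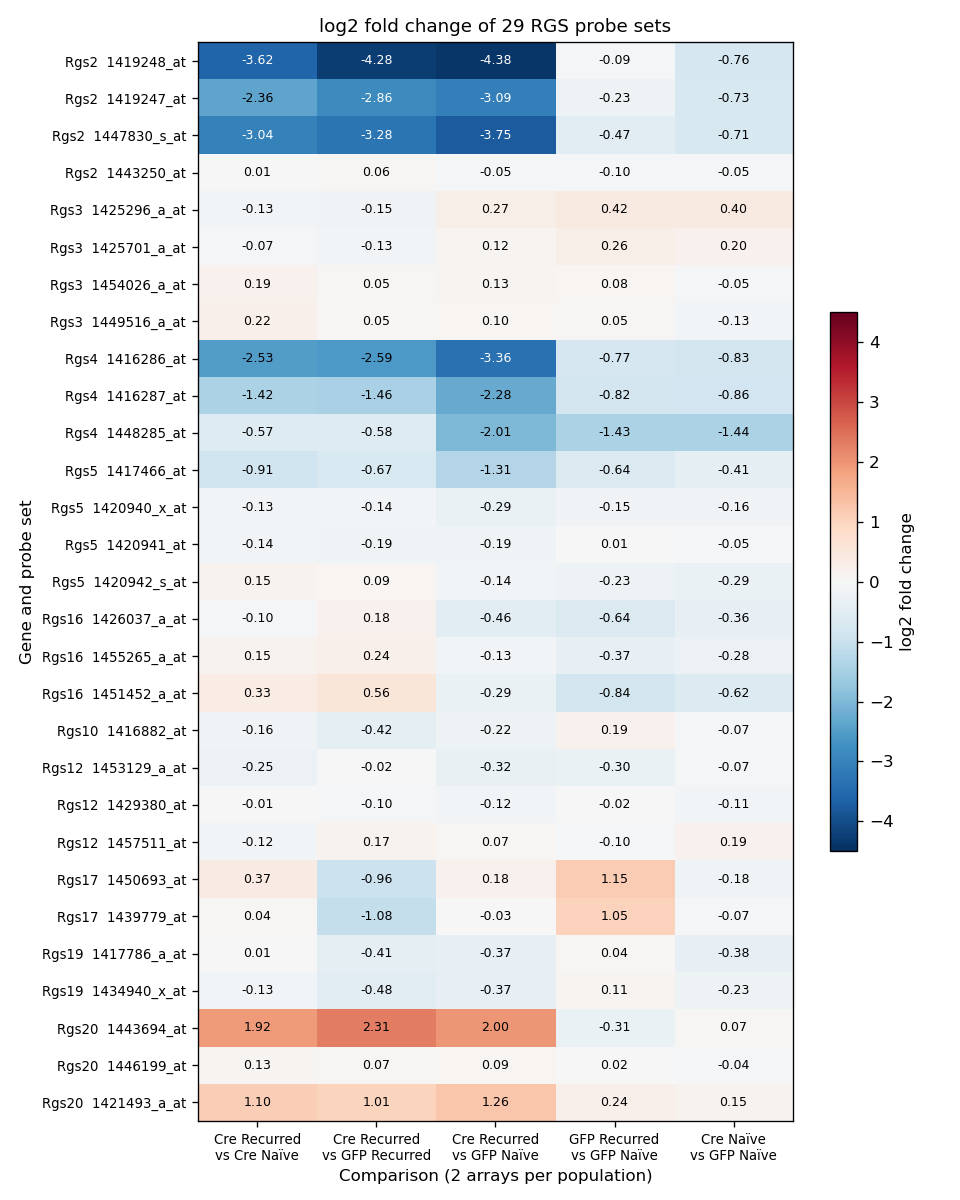
Log2 fold changes of the 29 RGS probe sets in 5 comparisons (columns, 2 arrays per population). Blue marks a lower and red a higher signal in the population named first. The first 3 columns contain the Cre Recurred arrays and show the low Rgs2 and Rgs4 and the high Rgs20 signal (for example -3.62, -2.53 and 1.92 in the first), and those of GFP Recurred and of Cre Naïve against GFP Naïve cells show lower Rgs4 values (-0.77 and -0.83 on 1416286_at). Rgs17 is higher in GFP Recurred cells (1.15 and 1.05).

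The count of called RGS probe sets was 8 of 29 in Cre Recurred against GFP Recurred cells (2 higher, 6 lower), where 8.85% of all probe sets were called, 4.08% higher and 4.78% lower. It was also 8 of 29 in Cre Recurred against GFP Naïve cells (2 higher, 6 lower), where 3.05% of all were called, 0.973% higher and 2.07% lower. Rgs2, Rgs4 and Rgs20 made up the calls, together with 1 probe set of Rgs17 in the comparison with GFP Recurred cells. These counts rest on the same Cre Recurred arrays as the first and are given without a reading. Without replicate 1 of the Cre Recurred cells they were 4 and 3, and without replicate 1 or replicate 2 of the GFP Recurred cells the first was 5 or 2. The difference between the effect of recurrence in Cre and in GFP cells was -1.76 (SE 0.25) for 1416286_at of Rgs4 and 2.23 (SE 0.25) for 1443694_at of Rgs20, the 2 of the 29 probe sets past the thresholds in this interaction term, where 0.4% of all were (0.155% higher, 0.244% lower). Neither was past them without replicate 1 of the Cre Recurred cells, replicate 1 of the GFP Naïve cells or either of the GFP Recurred arrays. The dim Rgs4 probe set 1448285_at had the opposite sign there (0.86, SE 0.63), its GFP Naïve values being the widest apart.

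The question whether the RGS genes moved with recurrence while RB was kept was put to GFP Recurred against GFP Naïve cells. The means compared hold no Cre Recurred arrays, although these arrays enter the intervals and p values through the shared spread. Rgs4, however, was chosen for a signal low relative to other populations, so its values here may not be independent of the choice. None of the 29 RGS probe sets passed the study's thresholds, where 0.0133% of all probe sets did. With so few calls, the lack of one cannot show that an RGS gene was unchanged. The smallest adjusted p of the 29 (limma, Benjamini-Hochberg over 45037 probe sets) was 0.768, and a SAM-type statistic called 0 as well. An unadjusted limma p under 0.05 was found for 7 of the 29, beside 2485 of all 45037. These 7 belong to Rgs3, Rgs4, Rgs16 and Rgs17 only, so they are not separate genes. By a simpler count, 7 of the 29 differed by 1.5-fold or more with no overlap between the arrays, 2 higher (both of Rgs17) and 5 lower (3 of Rgs4 and 2 of Rgs16), where 3.51% of all probe sets did so, 1.54% higher and 1.97% lower. The median log2 difference of the 29 was -0.10, beside 0.01 over all probe sets. The labels call the replicates biological. The p values rest on the spread within the replicate pairs of all 4 populations, moderated by a prior from all probe sets, and on no other replication.

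Rgs17, also called RGSZ2 and like Rgs20 an RZ protein that acts on Gz and Gi, had its highest values in GFP Recurred cells. Its brightest probe set (1450693_at) gave 6.65 and 6.04 in Cre Recurred, 7.22 and 7.39 in GFP Recurred, 6.28 and 5.67 in Cre Naïve and 5.60 and 6.72 in GFP Naïve cells. The GFP Recurred arrays were above all others, which overlapped among themselves. The difference between GFP Recurred and GFP Naïve cells was 1.15 (SE 0.39, 95% confidence interval 0.22 to 2.08, limma adjusted p 0.871), which did not pass. It was 0.59 without replicate 1 and 1.71 without replicate 2 of the GFP Naïve cells.

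The other Rgs17 probe set (1439779_at) gave 6.03 and 5.97 in Cre Recurred, 6.81 and 7.35 in GFP Recurred, 6.03 and 5.88 in Cre Naïve and 5.77 and 6.28 in GFP Naïve cells. Here too both GFP Recurred arrays lay above the 6 others. The difference from GFP Naïve cells was 1.05 (SE 0.23, interval 0.51 to 1.60, limma adjusted p 0.768). The Cre Recurred cells, in contrast, were close to the Cre Naïve cells, with log2 differences of 0.37 (SE 0.39) on 1450693_at and 0.04 (SE 0.23) on 1439779_at. Relative to GFP Recurred cells they were lower, with log2 differences of -0.96 (SE 0.39) and -1.08 (SE 0.23).

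Rgs4 was lower in GFP Recurred than in GFP Naïve cells on each of its probe sets with no overlap of the arrays. The log2 differences were -0.77 on 1416286_at (interval -1.19 to -0.36, limma adjusted p 0.801), -0.82 on 1416287_at (interval -1.27 to -0.38, limma adjusted p 0.801) and -1.43 on 1448285_at (interval -2.49 to -0.37, limma adjusted p 0.871). None passed the thresholds. Without replicate 1 of the GFP Naïve cells 1448285_at was called, at a log2 difference of -2.24, and without replicate 2 the difference was -0.61. For Rgs2 the difference was -0.09 on 1419248_at, with a wide interval of -1.27 to 1.08 (limma adjusted p 0.986). Rgs20 differed by -0.31 on 1443694_at (interval -0.73 to 0.11, limma adjusted p 0.873). On 1421493_a_at it differed in the other direction, by 0.24 (interval -0.13 to 0.61, limma adjusted p 0.885).

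Rgs16, an R4 protein that acts on Gi and Gq and is itself induced by many stimuli, was among the brightest members, with its strongest probe set (1426037_a_at) at percentile 87.8 of all signals. It gave 9.79 and 8.96 in Cre Recurred, 9.35 and 9.05 in GFP Recurred, 9.55 and 9.41 in Cre Naïve and 9.78 and 9.90 in GFP Naïve cells. GFP Naïve cells had the highest mean, and the Cre Recurred replicates, 0.83 apart, overlapped with every other population. The difference between GFP Recurred and GFP Naïve cells was -0.64 (interval -1.26 to -0.02, limma adjusted p 0.871). The 2 other probe sets had the same direction, at -0.37 on 1455265_a_at and -0.84 on 1451452_a_at, and did not pass either.

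Whether the loss of RB alone went with a change of RGS genes is asked by Cre Naïve against GFP Naïve cells. Here too the Cre Recurred arrays enter only through the shared spread, and the same limit applies to Rgs4. No RGS probe set passed the thresholds, and neither did any other (0.0% called), so the comparison calls nothing at this number of arrays. Among the 29, the smallest adjusted p was 0.997 (limma), and the SAM-type statistic called 0. An unadjusted limma p under 0.05 was found for 4, all of Rgs3 or Rgs4, beside 1159 of all 45037 probe sets. The 3 probe sets of Rgs4 were the only members lower by 1.5-fold or more with no overlap of the arrays, and no member was higher by that rule, beside 1.39% of all probe sets in either direction and 0.764% that were lower. The median log2 difference of the 29 was -0.16, beside 0.0 over all probe sets, and 24 of the 29 were negative. Many of these probe sets belong to the same gene and all share the GFP Naïve arrays, so nothing is read from this count.

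The Rgs4 differences between Cre Naïve and GFP Naïve cells were -0.83 on 1416286_at (interval -1.25 to -0.42), -0.86 on 1416287_at (interval -1.31 to -0.42) and -1.44 on 1448285_at (interval -2.50 to -0.38), each with a limma adjusted p of 0.997. Without replicate 1 of the GFP Naïve cells 1448285_at was called, at -2.26, and without replicate 2 its difference was -0.63. They were of the size seen between GFP Recurred and GFP Naïve cells, a comparison with the same GFP Naïve arrays. Rgs2 differed by -0.76 on 1419248_at (interval -1.94 to 0.42, limma adjusted p 0.997). Without replicate 2 of the Cre Naïve cells this was -0.11, and without replicate 1 it was -1.41. Rgs20 differed by 0.07 (interval -0.34 to 0.49, limma adjusted p 0.997), so its high signal in Cre Recurred cells had no counterpart of that size in untreated cells without RB.

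Rgs3, an R4 protein with long and short isoforms, gave 9.16 and 9.42 in Cre Recurred, 9.57 and 9.30 in GFP Recurred, 9.52 and 9.33 in Cre Naïve and 9.10 and 8.94 in GFP Naïve cells on its brightest probe set (1425296_a_at). The GFP Naïve arrays were the lowest, by a difference of 0.42 for GFP Recurred cells (interval 0.04 to 0.80, limma adjusted p 0.871) and 0.40 for Cre Naïve cells (interval 0.02 to 0.78, limma adjusted p 0.997). The 3 other Rgs3 probe sets ranged over 0.54 log2 units or less each. From GFP Naïve cells, GFP Recurred cells differed on them by 0.26 (1425701_a_at), 0.05 (1449516_a_at) and 0.08 (1454026_a_at). Cre Naïve cells differed by 0.20, -0.13 and -0.05 in the same order, so the direction was not shared by all probe sets.

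Rgs5, a marker of pericytes and vascular smooth muscle, was dim. Its brightest probe set (1417466_at, percentile 33.8) gave 3.26 and 3.81 in Cre Recurred, 3.78 and 4.63 in GFP Recurred, 4.55 and 4.34 in Cre Naïve and 5.99 and 3.71 in GFP Naïve cells. A single array, replicate 1 of the GFP Naïve cells, stood above the rest, and its partner was among the lowest. The log2 difference between Cre Recurred and GFP Naïve cells, -1.31, became -0.17 without that array and -2.45 without its partner. The 3 other Rgs5 probe sets stayed at 2.57 to 4.43. The summed log2 signal of 11 pericyte and smooth muscle markers was 87.1 to 89.5 in Cre Recurred, 85.6 to 87.2 in GFP Recurred, 88.1 to 90.9 in Cre Naïve and 84.5 to 86.1 in GFP Naïve cells, with Kcnj8 (4.51 to 4.93), Abcc9 (4.20 to 4.70) and Myh11 (at most 4.53) low on all arrays. Acta2 (13.27 to 13.68), Tagln (12.19 to 12.68), Cnn1 (10.61 to 11.30) and Pdgfrb (10.20 to 12.18), which fibroblasts also express, were bright on all arrays, and the other 4 lay between 4.89 and 7.57. Of the 11, only Des was called, higher in Cre Recurred than in GFP Recurred cells (1.65, limma adjusted p 0.109).

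Rgs10 gave 6.87 and 7.34 in Cre Recurred, 7.41 and 7.64 in GFP Recurred, 7.14 and 7.38 in Cre Naïve and 7.21 and 7.45 in GFP Naïve cells on its only probe set, and each population overlapped with the next in the order of their means. Rgs12, which besides the RGS domain has domains that bind Ras and inactive G alpha, gave 7.13 and 7.46 in Cre Recurred, 7.34 and 7.30 in GFP Recurred, 7.37 and 7.72 in Cre Naïve and 7.28 and 7.95 in GFP Naïve cells. Rgs19, also known as GAIP, an RZ protein that acts on Gi, was the brightest member, with 9.59 and 9.17 in Cre Recurred, 9.78 and 9.79 in GFP Recurred, 9.64 and 9.09 in Cre Naïve and 9.55 and 9.94 in GFP Naïve cells. For both genes the Cre Recurred arrays fell within the range of the Cre Naïve arrays or overlapped it. Against GFP Recurred cells the Cre Recurred arrays of Rgs10 (log2 difference -0.42, SE 0.20) and of both Rgs19 probe sets (-0.41, SE 0.24 on 1417786_a_at and -0.48, SE 0.17 on 1434940_x_at) were lower without overlap, and none of the 3 was called.

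RGS proteins act on the subunits and receptors of the same pathway, whose genes were counted by their brightest probe sets, where 1.65% of 18193 genes were called in Cre Recurred against Cre Naïve cells, 11.4% against GFP Recurred cells and 4.14% against GFP Naïve cells. Of 11 further measured genes with an RGS domain (of 13 listed), none was called in any comparison, and the largest differences from Cre Naïve cells were 0.33 for Rgs11 and 0.31 for Rgs14. Their median signal was 3.83. Among 13 G alpha subunits, Gnao1, a subunit on which several RGS proteins act, was the only one called in Cre Recurred against GFP Recurred cells, higher by 1.85 (limma adjusted p 0.109), and against GFP Naïve cells, higher by 1.63 (limma adjusted p 0.241). This 1 of 13 is a share near that of all genes against GFP Recurred cells. It gave 7.08 and 7.48 in Cre Recurred, 5.55 and 5.30 in GFP Recurred, 5.90 and 6.52 in Cre Naïve and 6.38 and 4.91 in GFP Naïve cells, so the Cre Recurred arrays were above all others. The largest difference from Cre Naïve cells in this list was that of Gnai1, a Gi subunit, at -2.29 (SE 0.55, limma adjusted p 0.275), which was not called. It gave 6.04 and 6.48 in Cre Recurred, 6.17 and 6.23 in GFP Recurred, 7.86 and 9.24 in Cre Naïve and 8.67 and 7.24 in GFP Naïve cells, so that both recurred populations lay below both naïve ones. Gnaz, the subunit favoured by Rgs20, did not differ beyond its spread, at 0.15 (SE 0.26) between Cre Recurred and Cre Naïve cells. None of 14 G beta and gamma subunits was called in any comparison, and the 2 with the largest difference from Cre Naïve cells were Gng11 (0.54) and Gng2 (0.45).

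Of 13 receptor kinases, arrestins and G protein chaperones, 0 were called against Cre Naïve cells and 4 against GFP Recurred cells. The arrestins Arrb1 (1.39, limma adjusted p 0.206) and Arrb2 (0.88, limma adjusted p 0.124), which uncouple active receptors, were higher, and the G protein modulators Gpsm1 (-0.79, limma adjusted p 0.200) and Gpsm3 (-0.94, limma adjusted p 0.216) were lower in Cre Recurred cells. Of 13 adenylyl cyclases and phospholipases C beta, Adcy7, a cyclase that makes cAMP, was called higher in Cre Recurred than in GFP Recurred cells (2.54, limma adjusted p 0.027) and than in GFP Naïve cells (1.18, limma adjusted p 0.195). It gave 9.55 and 9.23 in Cre Recurred, 6.91 and 6.80 in GFP Recurred, 7.91 and 8.41 in Cre Naïve and 8.59 and 7.84 in GFP Naïve cells. The Cre Recurred arrays were the highest and the GFP Recurred arrays the lowest.

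Of 33 measured receptors (of 42 listed), 0 were called higher in Cre Recurred cells in any of the 3 comparisons, while 1 was called lower against Cre Naïve cells, 8 against GFP Recurred cells and 4 against GFP Naïve cells. Over all genes 1.2%, 6.55% and 2.94% were called lower in these comparisons, and 0.456%, 4.81% and 1.2% were called higher. With shares this small, nothing is read from the lack of a higher call among 33 receptors. Ptger2, the Gs-coupled EP2 receptor of prostaglandin E2, was the one called in all 3. Its log2 signal was 2.62 and 2.68 in Cre Recurred, 6.33 and 6.49 in GFP Recurred, 5.34 and 4.28 in Cre Naïve and 5.24 and 6.35 in GFP Naïve cells. Both Cre Recurred arrays were below all others, and the difference was -2.16 (limma adjusted p 0.205) from Cre Naïve and -3.76 (limma adjusted p 0.027) from GFP Recurred cells. Lpar1, the main receptor of lysophosphatidic acid in fibroblasts, was lower than in GFP Recurred cells (log2 difference -1.20, limma adjusted p 0.0737), with 9.67 and 10.40 in Cre Recurred and 11.29 and 11.19 in GFP Recurred cells. Ptgfr, the prostaglandin F receptor, and Bdkrb1, the B1 receptor of bradykinin peptides, were also called lower against GFP Recurred and GFP Naïve cells. In GFP Recurred against GFP Naïve cells and in Cre Naïve against GFP Naïve cells no gene of these lists was called, beside 0.0165% and 0.0% of all genes.

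**Figure D4:**
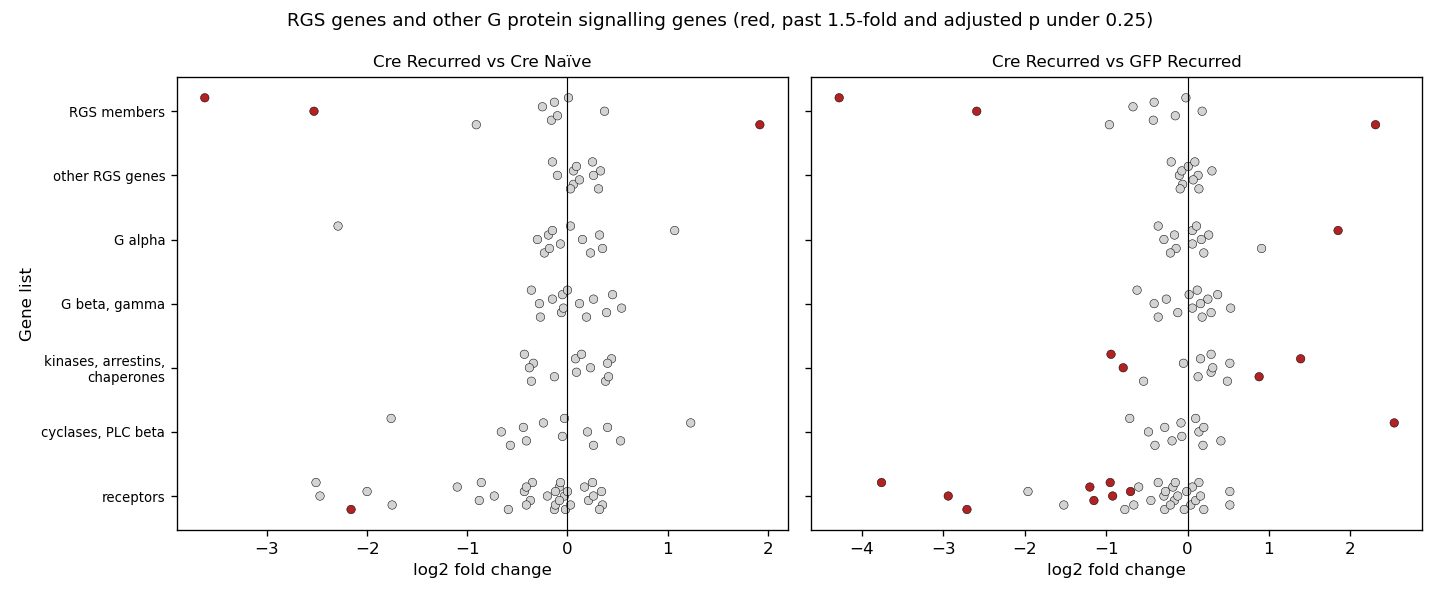
Log2 fold changes of the RGS genes and of 6 lists of other G protein signalling genes, 1 point per gene by its brightest probe set, in Cre Recurred against Cre Naïve cells (left) and against GFP Recurred cells (right). Red points pass 1.5-fold and an adjusted p under 0.25. On the left 3 RGS genes and 1 receptor are red, and on the right 8 receptors are red, all on the lower side. Also red on the right are Rgs2, Rgs4, Gpsm1 and Gpsm3 (lower) and Rgs20, Gnao1, Arrb1, Arrb2 and Adcy7 (higher). Over all genes 1.65% were called in the left comparison and 11.4% in the right.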

How the data were processed

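RNA from 8 cultures had been hybridised to Affymetrix arrays of the mouse genome, 2 per population. The authors deposited log2 signals from RMA, which combines the probes of a probe set after background correction and quantile normalisation, so that a flat or cross-hybridising probe set cannot be resolved further. The software used for RMA is not given in the sources used here. No array was left out. Of 45101 probe sets, 64 controls were dropped and 45037 tested. Gene symbols came from the array's annotation, by which 34945 probe sets had 1 symbol, 932 several and 9160 none.

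One mean per population was fitted with limma 3.58.1 in R 4.3.3 (4 residual and 3.07 prior degrees of freedom) and p values were adjusted by Benjamini-Hochberg over all 45037 probe sets. The study used SAM, and its thresholds (1.5-fold, FDR under 25%) were kept. Alternatives were a SAM-type statistic, a trended and robust prior, median centring, cyclic loess, a fit of the arrays in the comparison alone, a replicate block, omission of each array, dim or suffixed probe sets removed and the mean of all probe sets of a gene. The fits were tested on simulated data. Precision is limited by the number of arrays.

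All 10 RGS genes and 29 probe sets are named. Of each pathway list up to 3 genes with the smallest adjusted p are named, or, with none called, the 2 with the largest difference from Cre Naïve cells, and further 3 genes each with the pattern most like Rgs4 and Rgs20. Gpsm3, Gnaz, Gnai1 and Ptgfr fall outside this rule and were named after their values were seen. The RGS genes, the lists and the tests were chosen with earlier results of these data known. Figures were drawn with matplotlib 3.10.9 in Python 3.11.15.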

Additional observations from a re-analysis of the deposited data

Results flagged for a closer look

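For 2 RGS probe sets the effect of recurrence differed between Cre and GFP cells in the interaction term of the fit. For 1416286_at of Rgs4 the difference of the effects was -1.76 on the log2 scale, made up of -2.53 in Cre cells and -0.77 in GFP cells. For 1443694_at of Rgs20 it was 2.23, made up of 1.92 in Cre cells and -0.31 in GFP cells. The other probe sets of these genes were not called. Those of Rgs4 gave -0.60 (1416287_at) and 0.86 (1448285_at). Those of Rgs20 gave 0.86 (1421493_a_at, with 1.10 in Cre cells and 0.24 in GFP cells) and 0.11 (1446199_at). The 2 called terms, like the others, contain the Cre Recurred arrays with which the genes were chosen, so they are descriptions. Neither was called without replicate 1 of the Cre Recurred cells, without replicate 1 of the GFP Naïve cells or without either GFP Recurred array, although the values stayed between -1.92 and -1.60 for Rgs4 and between 2.04 and 2.43 for Rgs20 in all of the fits with 1 array left out.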

How the results depend on the processing

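Of 29 RGS probe sets, the number past the study's thresholds in Cre Recurred against Cre Naïve cells (6) was 1 with the SAM-type statistic, which called 19 probe sets in all, 3 with the compared arrays only, and 1 to 7 with an array left out (1 without replicate 1 of the Cre Recurred cells, 2 without either GFP Recurred array). Rgs4 1416286_at was called under each of these settings. Against GFP Recurred cells (8) it was 5 with the SAM-type statistic and 2 to 11 with an array left out (2 without replicate 2 and 5 without replicate 1 of the GFP Recurred cells, 4 without replicate 1 of the Cre Recurred cells). Against GFP Naïve cells (8) it was 4 with the SAM-type statistic, 5 without dim probe sets, of which 17 of the 29 were kept, and 3 to 8 with an array left out (3 without replicate 1 of the Cre Recurred cells). In GFP Recurred and in Cre Naïve against GFP Naïve cells it was 0 to 1, the 1 being Rgs4 1448285_at without replicate 1 of the GFP Naïve cells. For the interaction (2) it was 0 with the SAM-type statistic and 0 to 6 with an array left out (0 without replicate 1 of the Cre Recurred, replicate 1 of the GFP Naïve or either of the GFP Recurred arrays, 6 without replicate 2 of the Cre Naïve or of the Cre Recurred cells). A population reduced to 1 array was taken to have the spread of the remaining ones. The cause of these shifts was not tested.

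Of the other values computed for single genes, 824 stayed on the same side of the thresholds, 16 lost and 14 gained the call, and no called value changed sign. The labels do not say whether the replicate numbers pair the populations, and the correlations of the replicate differences, from -0.255 to 0.307, do not settle it. Replicate 1 of the GFP Naïve cells correlated better with replicate 1 of the Cre Naïve cells (r = 0.9941) than with its own partner (r = 0.9865). The GFP Recurred replicates correlated best with each other (r = 0.9953). The replicate block gave 6, 8, 8, 0, 0 and 2 called RGS probe sets in the 6 comparisons, the same as without it.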
